A study of Rattus norvegicus with 8 samples.

Results

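Chemokine receptors are the cell-surface proteins through which macrophages read chemokine gradients. The 5 described here were Ccr1, Ccr2, Cx3cr1, Cxcr2 and Cxcr4. They are 5 of 36306 gene names on the rat expression arrays used. Matching by gene name gave 7 of 45598 probes, each with 1 spot per array. The values come from NR8383 cells, an established rat alveolar macrophage line grown from the lavaged lung of a normal rat, so the line is a model of 1 cell type in culture. In the NM401 group, 4 biological replicates were kept for 4 h with the multi-walled carbon nanotube NM401 at 0.17 µg/mL. The control group was 4 biological replicates kept for the same 4 h at 0 µg/mL. Both groups were kept without serum. The question is which transcripts change when the cells meet the nanotubes.

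Chemokine receptors span the membrane repeatedly, couple mainly to inhibitory G proteins of the Gi class and steer cell movement through phosphoinositide 3-kinase and Rac. Their signal is ended by receptor kinases, arrestins and regulators of G-protein signalling, and the receptor is then taken into the cell. On cells of the monocyte and macrophage lineage, Ccr1 and Ccr2 bind inflammatory CC chemokines, Cx3cr1 binds fractalkine (Cx3cl1), and Cxcr4 binds Cxcl12, while Cxcr2 is best known as the receptor of neutrophils for Cxcl1 and its relatives.

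The probes that carry the results are 60 bases long, and their positions below are those of the deposited files, on rat build rn4. Ccr1 was read on chr8:128694469-128694528, minus strand, inside the coding part of the mRNA. Cx3cr1 had 2 probes, on chr8:125033728-125033787 (called the repeat probe here) and on chr8:125031563-125031622 (the second probe), both on the minus strand. The Cxcr4 probe lay on chr13:41308900-41308959, minus strand, also in coding sequence. The 2 whole probes and the 30 bases of each Cx3cr1 probe are shown because the results turn on what each probe reads. Capitals mark the CA repeat that fills the last 22 bases of the repeat probe.
Ccr1: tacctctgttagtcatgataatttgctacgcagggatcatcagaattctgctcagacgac
Cx3cr1 repeat probe, bases 31 to 60: aacagattCACACACACACACACACACACA
Cx3cr1 second probe, bases 16 to 45: taattctgtcaataaactctgggtttccct
Cxcr4: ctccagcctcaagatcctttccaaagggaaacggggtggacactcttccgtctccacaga

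Levels are log2 of the background-subtracted signal minus the array's 75th percentile of it, so 0 is the 75th percentile and levels of different probes are not comparable. That percentile was itself higher on NM401 arrays, at 2690 ± 172 signal units, than on control arrays, at 1240 ± 224 (SD, n = 4 each), and 246 spike-in control spots lay 2.29 lower on the scaled log2 values of NM401 arrays than of control arrays. Slide 1 carried the control arrays together with NM401 replicate 1, and slide 2 carried the other NM401 arrays. Within a slide, control arrays lay in row 1 and NM401 arrays in row 2, so an effect of row cannot be told apart from that of NM401. Arrays correlated across genes at r of 0.991 to 0.996 within NM401, 0.989 to 0.996 within control and 0.966 to 0.983 between the groups. The label of an alveolar macrophage line was read against 14 macrophage markers, of which 11 were well above background on all 8 arrays, Csf1r, Cd68 and Lyz2 among them, while Marco was so on none. Of 11 neutrophil markers 3 (Camp, Mmp9 and Lcn2) were well above background on all 8 arrays and 4 on none. Of 11 lymphocyte markers 10 were on the array. Of these, 3 (Cd3d, Lck and Nkg7) were well above background on all 8 arrays and 6, Cd3e among them, on none.

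Of the 5 receptors, 2 passed the filter for testing, which asked for 4 or more of the 8 arrays to lie well above background, and Ccr1 was higher and Cx3cr1 lower in NM401 cells at an adjusted p below 0.05. Cxcr4 was well above background on some control arrays only, and Ccr2 and Cxcr2 on no array. Over all 17444 genes tested, limma called 21.9% higher and 35.4% lower, and with only 2 receptors tested, 1 call in each direction says little against that background. The median log2 fold change of all genes was -0.10. In bulk RNA a lower level from fewer expressing cells and from less RNA per cell cannot be told apart.

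**Figure D1:**
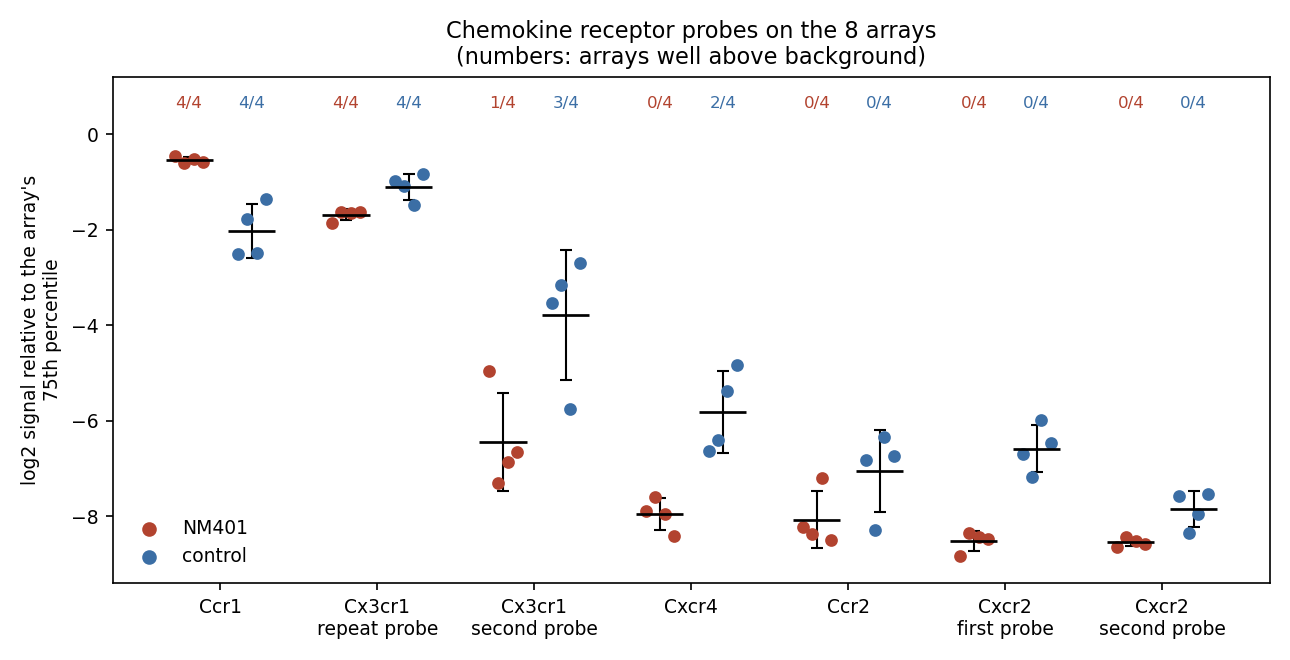
Log2 signal of the 7 receptor probes relative to the array's 75th percentile, NM401 arrays left of control arrays; points are arrays, bars the mean ± SD of 4, and the numbers give the arrays well above background. Ccr1 and the Cx3cr1 repeat probe were above background on 4 of 4 arrays in both groups, and the other 5 probes on 3 or fewer in any group; heights are not comparable between probes.

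Ccr1, a receptor for Ccl3, Ccl5, Ccl7 and Ccl9 in rodents, was higher in NM401 cells. Its levels were -0.46, -0.61, -0.53 and -0.58 in NM401 replicates 1 to 4, against -2.50, -1.78, -2.49 and -1.36 in control replicates 1 to 4. All NM401 arrays lay above every control array. The NM401 values were nearly alike (SD 0.06, n = 4), while the control values spread over more than 1 log2 unit (SD 0.56, n = 4). The means were -0.55 in NM401 and -2.03 in control, a log2 fold change of 1.49 ± 0.25 (SE) or 2.81-fold (limma, adjusted p = 0.00144). An exact permutation test of the 8 values gave p = 0.0286 (two-sided), the smallest that 4 against 4 arrays allow. No overlap with NM401 higher was found for 21% of all tested genes, while 96 genes (0.55%) had a log2 fold change at least as large as that of Ccr1.

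Before scaling, the Ccr1 spot gave 2090, 1660, 1940 and 1710 signal units in NM401 replicates 1 to 4, against 233, 433, 209 and 373 in control replicates 1 to 4. The unscaled means were 1850 ± 201 in NM401 and 312 ± 108 in control (SD, n = 4 each). Unscaled, Ccr1 was higher by 2.63 on the log2 scale, while the 75th percentile itself was higher by 1.14. Unscaled signals thus lean towards higher NM401 values, so their direction alone adds no support. A fit with slide as a block gave 1.57 (limma, adjusted p = 0.0279). Slide 2 held no control array, so in such a fit, for any probe, only NM401 replicate 1 is set against controls. The other NM401 arrays enter only the estimate of spread, and the pass of Ccr1 there rests on 1 exposed array for its log2 fold change. Within slide 1, where NM401 replicate 1 is the only exposed array and is assumed to vary like the controls, it was also 1.57 but no longer passed (limma, adjusted p = 0.0868).

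Cx3cr1, the fractalkine receptor, was lower in NM401 cells on both of its probes after scaling. The repeat probe read -1.86, -1.62, -1.65 and -1.62 in NM401 replicates 1 to 4, against -0.99, -1.09, -1.49 and -0.84 in control replicates 1 to 4. Every NM401 array lay below every control array, although control replicate 3 came close. NM401 averaged -1.69 ± 0.11 and control -1.10 ± 0.28 (SD, n = 4 each), a log2 fold change of -0.58 ± 0.14 (SE), which is 1.5-fold lower (limma, adjusted p = 0.00745; exact permutation p = 0.0286, two-sided). No overlap with NM401 lower was found for 32.2% of all tested genes.

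The direction of the repeat probe depended on the scaling. Its unscaled signal was 794, 824, 892 and 833 in NM401 replicates 1 to 4, against 665, 698, 419 and 534 in control replicates 1 to 4. Unscaled, NM401 arrays were therefore the higher ones, by 0.56 on the log2 scale, and the sign turned when each array was divided by its own 75th percentile. Scaled to the spike-in spots instead, an alternative chosen after seeing the data, it was higher in NM401 by 1.71. With quantile normalisation it was -0.56 and with median scaling -0.38, where the groups overlapped. With slide as a block it was -0.75 (limma, adjusted p = 0.0355), and within slide 1 it was -0.75 and did not pass (limma, adjusted p = 0.105).

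The second Cx3cr1 probe was dim. It read -4.96, -7.30, -6.86 and -6.66 in NM401 replicates 1 to 4, against -3.54, -3.15, -5.76 and -2.69 in control replicates 1 to 4. It was well above background on 1 of 4 NM401 arrays, replicate 1, and on 3 of 4 control arrays, and the groups overlapped through NM401 replicate 1 and control replicate 3. The means were -6.44 ± 1.03 in NM401 and -3.79 ± 1.36 in control (SD, n = 4 each), a log2 fold change of -2.66 ± 0.73 (SE; limma, adjusted p = 0.0155), but an exact permutation test of the same values gave p = 0.0571 (two-sided). The one NM401 array above background was also the one that shared a slide with the controls. A fit with slide as a block gave -1.17, which no longer passed (limma, adjusted p = 0.408), and within slide 1 it was -1.17 (limma, adjusted p = 0.507). Scaled to the spike-in spots it was -0.37 and did not pass (limma, adjusted p = 0.248).

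**Figure D2:**
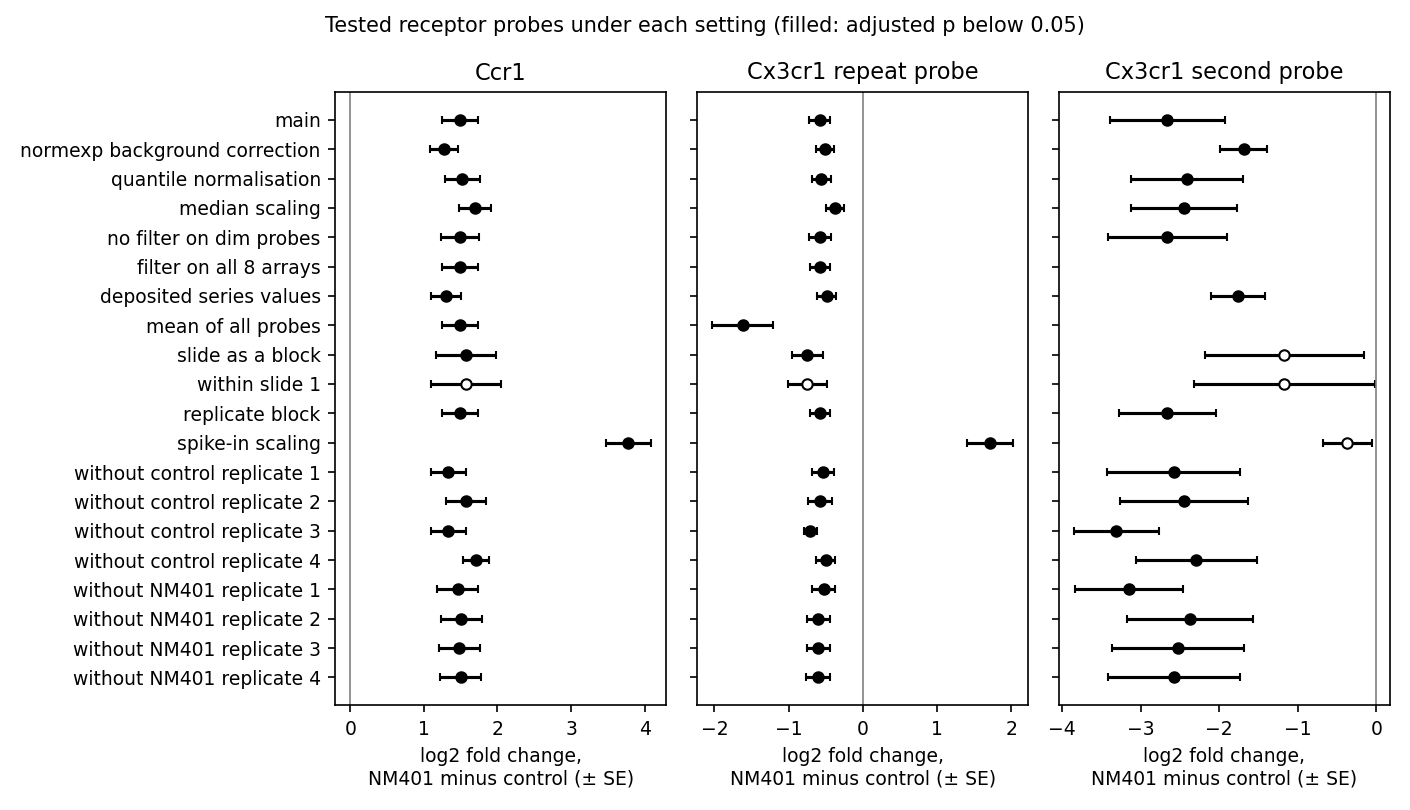
Log2 fold change (NM401 minus control, ± SE) of the 3 tested receptor probes under the main setting and each alternative, filled where the adjusted p is below 0.05; a gap marks a setting that gave no value. Ccr1 lay above 0 under every setting shown, the Cx3cr1 repeat probe below 0 under all but spike-in scaling, and the second Cx3cr1 probe below 0 throughout but with an adjusted p above 0.05 under 3 settings.

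The repeat probe was then set beside other probes with a CA repeat, a comparison chosen after its values and sequence were seen. On the array, 16 probes held a CA run of at least 22 bases, and the 15 others, designed for other genes, were all well above background on all 8 arrays. They included Nek8, a kinase of the cilium, and Rassf2, Extl3 and Glra2. Their log2 fold changes ran from -0.56 to -0.20 with a median of -0.36, against -0.08 for all tested probes. Of the 15, 9 were lower, 0 higher and 6 not called by limma, beside 34.1% of all tested probes called lower.

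These probes also moved together from array to array. Over the 8 arrays, which all probes share, the 15 correlated with the Cx3cr1 repeat probe at Pearson r of 0.814 to 0.991 (median 0.953). With the group means taken out, r was 0.84 to 0.99 (median 0.944). The second Cx3cr1 probe correlated with the repeat probe at r of 0.825. Among all probes, 47.5% of those with no CA run of 8 or more bases were tested, and 47.6% with a run of 8 to 15 bases. All 14 with a run of 16 to 21 bases and all 16 with a longer run were tested. The median log2 fold change was -0.55 for runs of 16 to 21 bases, where 12 of 14 were lower. It was -0.40 for runs of 8 to 15 bases, where 41 of 91 tested were lower. The -0.58 of Cx3cr1 thus lay near the median of the 16 to 21 class. The part of the repeat in the Cx3cr1 signal was not tested.

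**Figure D3:**
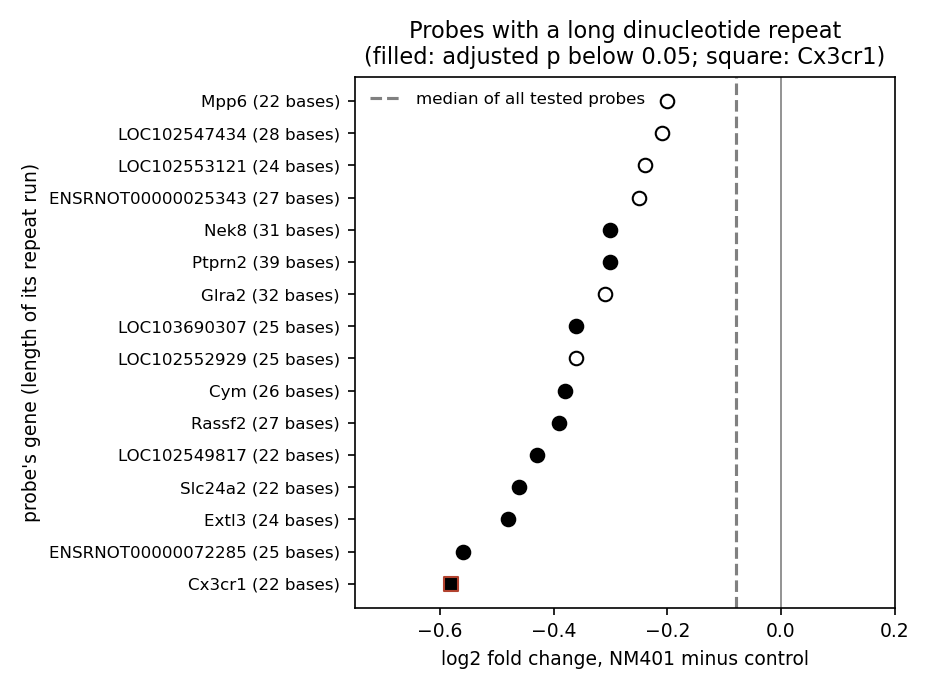
Log2 fold change (NM401 minus control) of the 16 probes with a dinucleotide repeat run of at least 22 bases, filled where the adjusted p is below 0.05; the square is Cx3cr1 and the dashed line the median of all tested probes. All 16 lay left of that median of -0.08, and Cx3cr1 lay lowest at -0.58.

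Cxcr4, the receptor for Cxcl12 that holds leukocytes in tissues rich in this ligand, was close to the limit of detection. Its levels were -7.88, -7.60, -7.95 and -8.41 in NM401 replicates 1 to 4, against -6.64, -6.41, -5.38 and -4.84 in control replicates 1 to 4. The groups did not overlap, yet the probe was well above background on 0 of 4 NM401 arrays and 2 of 4 control arrays, so it missed the filter and was not tested. The measured means were -7.96 ± 0.34 in NM401 and -5.82 ± 0.85 in control (SD, n = 4 each). Set against a floor on this scale, Cxcr4 was 2.91-fold lower in NM401. The floor is the mean, over NM401 arrays, of the lowest signal among probes well above background, here -7.36. Probes not well above background can read higher than this floor, as Col1a1 did at -6.28 in NM401 replicate 2. The 2.91-fold is therefore not a strict bound. The control mean includes arrays that were not well above background. On other background treatments the difference was -1.14 (normexp) and -1.06 (deposited values), both smaller than this floor-based fold. Unscaled, the processed signal differed by -1 on the log2 scale, also less. The floor-based fold is thus given for the signal scaled to the 75th percentile and does not carry over to these.

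Other dim probes were lower on NM401 arrays too on this scale. The 19283 probes well above background on no array had a median difference of -0.53, with NM401 below control without overlap in 58.2% of them. Closer to Cxcr4 are the 252 probes well above background on 2 control arrays and 0 NM401 arrays, a class that favours lower NM401 values. Their median difference was -1.56 (quartiles -2.01 and -1.10), beside -2.14 for Cxcr4. Background-subtracted and unscaled, Cxcr4 gave 12.2, 13.1, 11.3 and 7.49 signal units in NM401 replicates 1 to 4, against 13.2, 17.5, 28.4 and 33.5 in control replicates 1 to 4. These did not overlap, though the highest NM401 and the lowest control value nearly met, with means of 11 ± 2.47 in NM401 and 23.1 ± 9.39 in control (SD, n = 4 each). The median pixel signal of the Cxcr4 spot, before any background was subtracted, was 65, 69.5, 78 and 72 in NM401 replicates 1 to 4, against 59, 64, 75 and 81 in control replicates 1 to 4. Those values, which still hold the background, overlapped, and scaled to the spike-in spots the Cxcr4 difference was 0.15, with overlap.

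Ccr2, the receptor through which monocytes follow Ccl2, and Cxcr2 were not detectable at this sensitivity. Ccr2 was read on chr8:128893805-128893864, plus strand, and was well above background on 0 of 8 arrays. Its levels were -8.22, -8.38, -7.19 and -8.50 in NM401 replicates 1 to 4, against -6.82, -8.29, -6.33 and -6.73 in control replicates 1 to 4. The groups overlapped and no fold is given. Background-subtracted signals of Ccr2 were 7.04 to 19.2 units in NM401 and 4.77 to 14.6 units in control, also overlapping.

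Cxcr2 had probes on chr9:73477254-73477313 and chr9:73478208-73478267, plus strand, each well above background on 0 of 8 arrays. The first probe gave background-subtracted signals of 6.3 to 8.04 units in NM401 and 10.2 to 18.6 units in control. The second gave 6.72 to 7.67 units in NM401 and 4.57 to 6.9 units in control. The 2 probes thus pointed in opposite directions before scaling. After scaling both were lower in NM401 without overlap, by -1.95 and -0.69, as were 58.2% of all probes well above background on no array. The second probe overlapped with quantile and median scaling. No fold is given.

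Most other chemokine receptors were not detected either. Of 19 other chemokine receptors 18 were on the array, 11 of them above background on no array, and 6 were tested. Of those, 1 was higher, 1 lower and 4 not called, beside 21.9% higher and 35.4% lower among all tested genes. Their median log2 fold change was -0.16. The 1 higher is not stable under leaving out NM401 replicate 3 or 4 (0) or control replicate 3 (2), and the 1 lower became 2 without control replicate 2 or 3. The scavenging receptor Ackr4 was higher (0.41 ± 0.12 SE; limma, adjusted p = 0.0198), although it was -0.33 with normexp background correction. Ccr9, a gut-homing receptor of lymphocytes, was lower (-0.60 ± 0.12 SE, limma, adjusted p = 0.00341), and had another probe that was above background on 0 of 8 arrays. The direction of Ccr9 depended on the scaling. Its unscaled signal was higher in NM401 without overlap, by 0.54 on the log2 scale, and with spike-in scaling it was 1.69.

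**Figure D4:**
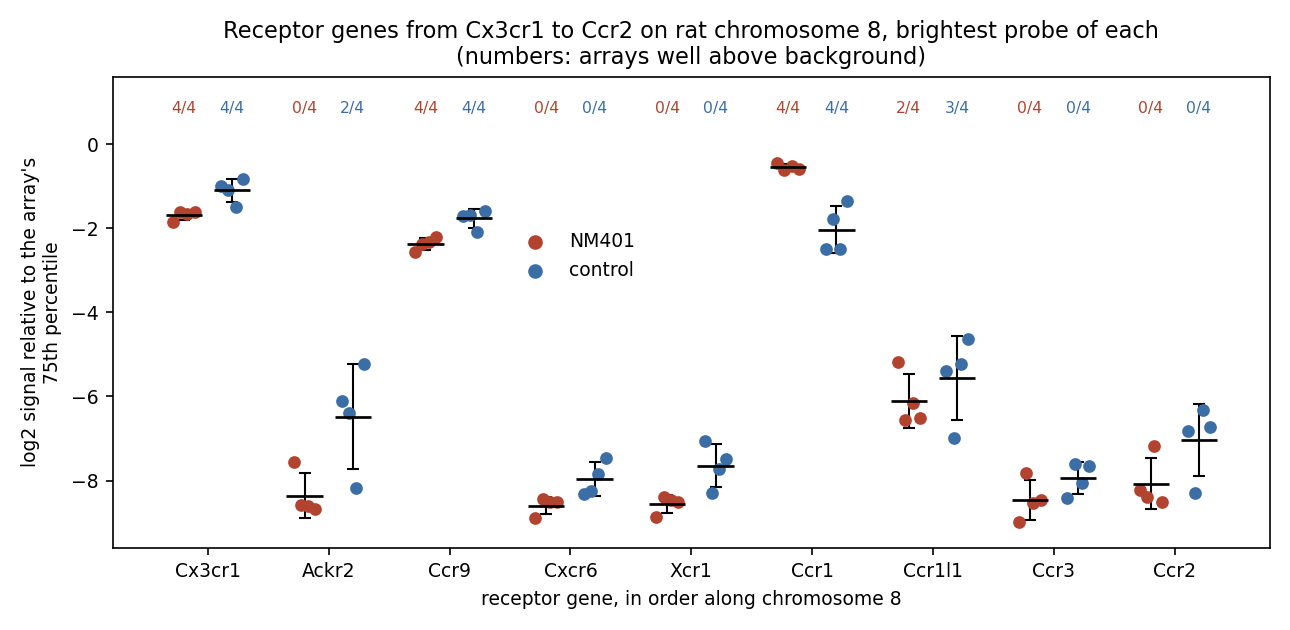
Log2 signal relative to the array's 75th percentile for the brightest probe of each of 9 receptor genes in their order along rat chromosome 8, NM401 arrays left of control arrays; points are arrays, bars the mean ± SD of 4, and numbers the arrays well above background. Of the genes shown only Cx3cr1, Ccr9 and Ccr1 were above background on all 8 arrays, and Ccr1 is the one of these 3 that was higher in NM401; heights are not comparable between probes.

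Most of the tested ligand genes of the 5 receptors were higher in NM401 cells under the main setting. Of 16 ligand genes 12 were tested, and 9 were higher, 1 lower and 2 not called. Of all tested genes 21.9% were higher and 35.4% lower. The median log2 fold change of the ligands was 1.06. It was 0.91 with Ccl12 and Cxcl1 set against the floor of the control arrays, taken as for Cxcr4. Ccl12 and Cxcl1 passed the filter through NM401 arrays only. With normexp, with deposited values and with a filter on all 8 arrays, 6 ligands were called higher, and the last left Ccl7, Ccl12 and Cxcl1 untested. Ccl2, the main ligand of Ccr2, had levels of 4.03, 3.98, 4.01 and 4.23 in NM401 replicates 1 to 4, against 1.02, 1.55, 0.95 and 1.18 in control replicates 1 to 4, a log2 fold change of 2.89 ± 0.13 (SE; limma, adjusted p = 2.47e-05). Ccl12, another Ccr2 ligand of rodents, was 1.86-fold higher against that floor, but -0.25 with normexp background correction. The 1.86-fold is not a strict bound. Cx3cl1, well above background on 0 control arrays, averaged -5.98 there, beside -5.92 for Ccl12 in NM401. Ccl2 was thus measured as higher in cells whose Ccr2 probe was above background on no array.

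Among ligands of Cxcr2, Cxcl2 was higher by 1.53 ± 0.17 (SE, limma, adjusted p = 0.000232). Cxcl1 was 2.75-fold higher against the control floor, also not a strict bound, and was -0.06 with normexp background correction. Ccl3 and Ccl9, ligands of Ccr1, were higher by 0.52 ± 0.08 and 1.19 ± 0.15 (SE). Mif, a cytokine that also binds Cxcr4, was the 1 lower gene at -0.38 ± 0.06 (SE; limma, adjusted p = 0.000964), but missed the threshold with quantile normalisation (-0.14) and median scaling (-0.18). Cx3cl1, the ligand of Cx3cr1, was above background on 0 of 8 arrays, and Cxcl12 on 1 of 8.

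**Figure D5:**
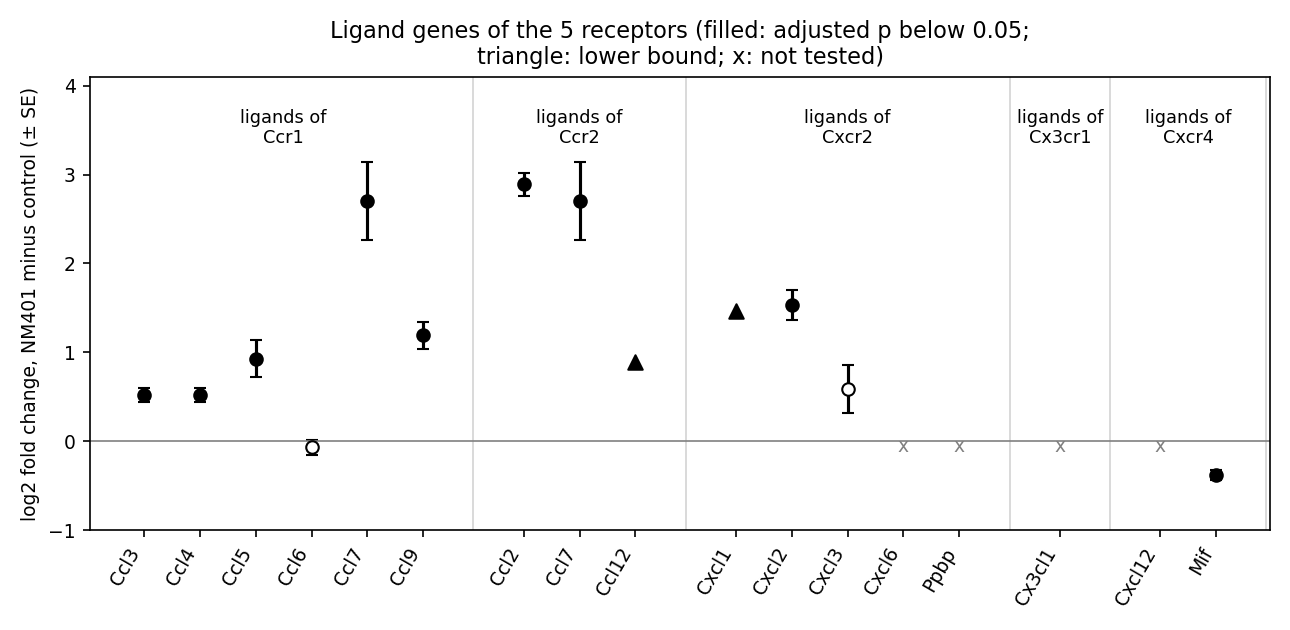
Log2 fold change (NM401 minus control, ± SE) of the ligand genes grouped by receptor. Points are filled where the adjusted p is below 0.05, and x marks genes that were not tested. Triangles, titled lower bound, set Ccl12 and Cxcl1 against the floor of the control arrays and are not strict bounds. No control array put these genes well above background. Ccl2 stood at 2.89 and Mif was the called gene below 0; Ccl7, well above background on 1 control array, stands under both Ccr1 and Ccr2.

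Genes that carry the receptors' signal inside the cell moved in both directions. Of 26 such genes 25 were tested, 4 higher, 12 lower and 9 not called (median log2 fold change -0.20). Of all tested genes 21.9% were higher and 35.4% lower. The G protein subunit Gnb2 was lower by limma at -0.74 ± 0.04, and so were Dock2, an activator of Rac, at -0.50 ± 0.05, Cdc42 at -0.44 ± 0.07 and Rac1 at -0.33 ± 0.06 (SE). Rac2, the Rac form of blood cells, was higher at 0.60 ± 0.17, as were the kinase Ptk2b at 0.32 ± 0.08 and the G protein subunits Gng5 at 0.24 ± 0.06 and Gnai3 at 0.19 ± 0.05 (SE). With slide as a block the adjusted p of these 4 higher genes was 0.155 for Rac2, 0.419 for Ptk2b, 0.112 for Gng5 and 0.0571 for Gnai3 (limma), so none passed. Of the lower ones, Cdc42 missed the threshold with quantile normalisation (-0.13) and Rac1 with median scaling (-0.12).

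Genes that end the signal or carry receptors into the cell also moved in both directions. All 22 were tested, 6 higher, 5 lower and 11 not called (median log2 fold change 0.08). Beside 21.9% higher and 35.4% lower among all tested genes, these counts say little about the list as a whole. Rgs1, which shortens Gi signalling, had levels of -1.75, -1.66, -1.70 and -1.47 in NM401 replicates 1 to 4, against -4.50, -3.64, -4.56 and -3.50 in control replicates 1 to 4, a log2 fold change of 2.40 ± 0.25 (SE; limma, adjusted p = 0.000178). Rgs18 was higher at 0.88 ± 0.18, Vps4a, which sorts receptors for breakdown, at 0.63 ± 0.06 and the arrestin Arrb1 at 0.47 ± 0.09 (SE). The other arrestin, Arrb2, was lower at -0.61 ± 0.07, as were the coat proteins Ap2m1 at -0.45 ± 0.06 and Cltc at -0.43 ± 0.05 and the membrane-cutting Dnm2 at -0.37 ± 0.06 (SE). Arrb1 was 0.04 as the mean of its probes and 0.28 with slide as a block and did not pass in either, and within slide 1 Rgs18 missed the threshold (limma, adjusted p = 0.0832). With quantile normalisation Ap2m1 (-0.11) and Dnm2 (-0.15) missed the threshold, as did Dnm2 with median scaling (-0.16).

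The genes most like Ccr1 across the 8 arrays, among 10860 compared, were Mcoln3, a lysosomal cation channel (Pearson r 0.995), Slc17a3, an anion transporter (0.994), and Rgcc, a regulator of the cell cycle (0.993). All 3 were higher in NM401, and 732 genes had r above 0.9. Rgcc, like Ccr1, had its highest control value in replicate 4 (-2.50). For Cx3cr1 they were Ccr9 (0.981), Zfp213, a zinc finger protein (0.98), and Nek8 (0.979), whose probe holds a CA run of 31 bases, and 301 genes had r above 0.9. These correlations are descriptions over arrays that fall into the 2 groups.

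Markers of other cells were read beside these values. The summed level of the macrophage markers was 128 to 135 in NM401 and 145 to 153 in control, on a linear scale where 1 is the 75th percentile. Such sums are weighted to the brightest probes, here Lyz2, with log2 levels of 6.46 to 6.55 in NM401 and 6.60 to 6.75 in control. Of 12 macrophage markers tested, 2 were higher, 4 lower and 6 not called (median log2 fold change 0.01), beside 21.9% higher and 35.4% lower among all tested genes. The summed level of the neutrophil markers was 11 to 12.3 in NM401 and 3.71 to 21.7 in control. It was led by Lcn2, whose log2 levels were 3.34 to 3.50 in NM401 and 1.57 to 4.37 in control. Mpo was above background on 0 NM401 and 4 control arrays. Lymphocyte markers summed to 0.447 to 0.497 in NM401 and 0.768 to 1.03 in control. The groups did not overlap in the macrophage and lymphocyte sums and overlapped in the neutrophil sum. Epithelial markers summed to 0.227 to 0.286 in NM401 and 0.223 to 0.264 in control, and fibroblast and endothelial markers to 3.19 to 3.26 in NM401 and 2.98 to 3.87 in control. Their part in the receptor values was not tested.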

How the data were processed

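Total RNA of NR8383 cells was hybridised as Cy3-labelled cRNA to 1-colour Agilent arrays, per the labels. The authors deposited spot intensity values made with Agilent Feature Extraction 11.0.1.1, per the submitters' processing notes. The processed signal is background-subtracted and not scaled between arrays, per the file headers. The deposited series table held the median pixel intensity in 503808 of 503808 spot values. From the processed signal, log2 values minus the 75th percentile of the array's 58717 non-control spots were computed, spots flagged as outliers were left out, and spots of a probe were averaged. The 21684 probes that 4 or more of the 8 arrays put well above background were tested with limma 3.58.1 in R 4.3.3, adjusted by Benjamini-Hochberg over all of them, and called at an adjusted p below 0.05. A gene was represented by its brightest tested probe. The test was checked on simulated data. The 4 arrays per group limit the precision.

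The alternatives were normexp (offset 50), quantile and median scaling, other filters on dim probes, the deposited series values, the mean of a gene's probes, slide and replicate number as blocks, leaving out each array, and scaling to spike-in spots, the last added after seeing the data. RefSeq names (GRCr8, names only) matched 21109 probes. The members, the lists of ligands, other receptors, signalling, desensitisation and cell markers, and the rule for naming genes (all members, up to 4 called genes per list and direction with the smallest p, and the 3 genes most like each tested member) were chosen with earlier results of these data known. Some items are not reported here. A few genes were named after their values were seen. Same-numbered replicates correlated at 0.19, -0.01, 0.09 and -0.06, so the numbers do not pair the arrays.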

Additional observations from a re-analysis of the deposited data

Results flagged for a closer look

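Of 78 groups of 4 arrays checked, 6 had 1 array standing apart from the other three (gap over range above Dixon's limit), and chance alone flags about 1 in 20 groups. On the Cx3cr1 repeat probe, NM401 replicate 1 was lowest at -1.86, and this array shared a slide with the controls. Ptk2b in NM401 was lowest in replicate 1 at 0.12. Cxcl2 in NM401 was highest in replicate 1 at -0.90, where the other three were alike. The summed level of lymphocyte markers in NM401 had a highest array at 0.497, the summed level of other chemokine receptors in control a highest array at 2.93, and the summed level of the ligands of the 5 receptors in control had a highest array at 63.9.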

How the results depend on the processing

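Ccr1 kept its direction under all 19 alternatives and passed under 18, all but the fit within slide 1. The 18 include slide as a block, whose log2 fold change also rests on NM401 replicate 1 as the 1 exposed array set against controls. They also include spike-in scaling, which raised every gene and called 97.8% of all genes higher, so that pass adds no support. Leaving out 1 array in turn gave 1.33 to 1.71 for Ccr1, -0.71 to -0.50 for the Cx3cr1 repeat probe and -3.31 to -2.29 for the second Cx3cr1 probe, all past the threshold, with 1 receptor higher and 1 lower each time. With the replicate number as a block the values were 1.49, -0.58 and -2.66 with the calls kept, although the numbers do not pair the arrays; the other receptors called higher became 0.

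Within slide 1, Ccr1 was 1.57, the Cx3cr1 repeat probe -0.75 and the second probe -1.17, none past the threshold, so receptors called became 0 higher and 0 lower; with 1 exposed array there, fewer arrays were used. With slide as a block the second probe was -1.17 and missed the threshold. Spike-in scaling raised every value by 2.29: the Cx3cr1 repeat probe became 1.71, the second probe -0.37, and receptors called 2 higher and 0 lower. With no filter on dim probes 3 receptors were called lower, Cx3cr1, Cxcr2 and Cxcr4, beside 21.4% of all 36276 genes. Of all genes, 53.9% were called lower with normexp, 48.4% with deposited values, 26.7% with quantile, 19.3% with median and 0.31% with spike-in scaling. Called higher were 15.7% with normexp, 16.1% with deposited values and 8.13% with no filter. With quantile, median and spike-in scaling 28.6%, 35% and 97.8% were higher. The list counts below are to be read beside these shares. Genes called higher were 6113 with median scaling, 2216 with slide as a block, 755 within slide 1 and 17053 with spike-in scaling. Genes called lower were 9406 with normexp, 3360 with median scaling, 3525 with slide as a block, 1361 within slide 1 and 54 with spike-in scaling.

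Counts of other receptors called higher were 2 with quantile and median scaling, 6 with spike-in scaling, and 0 with no filter, deposited values, slide as a block and within slide 1, with a range of 0 to 2 on leaving out 1 array (0 without NM401 replicate 3 or 4, 2 without control replicate 3). Counts called lower were 5 with normexp, 3 with no filter, 4 with deposited values, and 0 within slide 1 and with spike-in scaling, with a range of 1 to 2 on leaving out 1 array. Ligands called higher were 4 within slide 1; called lower were 2 with normexp and no filter, and 0 with quantile, median, within slide 1 and spike-in scaling. Signalling genes called higher were 7 with median scaling, 0 with slide as a block and within slide 1 and 25 with spike-in scaling; called lower were 6 with quantile and median scaling, 7 with slide as a block, 1 within slide 1 and 0 with spike-in scaling. Desensitisation genes called higher were 11 with quantile, 14 with median, 2 within slide 1 and 22 with spike-in scaling; called lower were 3 with quantile and median, 1 within slide 1 and 0 with spike-in scaling.

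Reversed were Ackr4 (-0.33 with normexp, -0.24 with deposited values), Ccl12 (-0.25 with normexp, -0.11 with deposited values) and Cxcl1 (-0.06 with normexp). With spike-in scaling Ccr9 became 1.69, Mif 1.91, Gnb2 1.55, Dock2 1.79, Cdc42 1.85, Rac1 1.96, Arrb2 1.68, Cltc 1.86, Ap2m1 1.84 and Dnm2 1.93. The cause of these changes was not tested beyond the construction of each setting. Signal over background limits Ccr2, Cxcr2 and Cxcr4.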
